A study of Homo sapiens with 3 samples.

Results

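Replication origin calls on the arms of human chromosome 10, and on the distal part of its long arm in particular, were described in untreated HCT116 cells. All rows that the peak callers EPIC2 and MACS2 gave on chromosome 10 in 3 replicates were taken, 39271 of the 691274 calls of the series, or 5.68%. The chromosome was divided by hg19 position into a short arm up to 40 Mb with 10230 calls, a proximal long arm from 40 to 98 Mb with 11968, and a distal long arm from 98 Mb with 17073. The division did not use any measured value of the segments, although it was proposed with earlier results of the same lists known. Short nascent strand sequencing (SNS-seq) was performed on untreated HCT116, an established cell line from a human colorectal cancer, grown in RPMI medium. The samples were 1 group of 3 replicates with no control condition. The experiment asked which places of the genome act as origins in these cells. Per the methods these were triplicate experiments, and the SD is the spread between their libraries.

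Replication origins are licensed when the origin recognition complex and the MCM helicase are loaded in G1, and a fraction of them fires in S phase. Each fired origin produces short nascent strands that carry an RNA primer, which protects them from lambda exonuclease while broken DNA is digested. SNS-seq reads therefore pile up around the places where synthesis started. Origins are known to cluster in gene-rich, early replicating chromatin and to be sparse in gene-poor, late replicating chromatin. HCT116 is close to diploid, and its published karyotypes describe gains of the distal long arm of chromosome 10 and of parts of chromosomes 8 and 17. DNA copy number was not measured in these lists, and a larger amount of DNA and a more frequent use of origins cannot be told apart in them.

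MACS2 marked narrow peaks by a single base, the summit, with a score read as −log10 of the q-value. EPIC2 marked diffuse regions with a start, an end and a score of unstated kind. A region that held 1 or more summits of the same library is called a common region. Chromosome 10 had 7138, 3169 and 5073 EPIC2 regions in replicates 1, 2 and 3. Its summits numbered 11559, 3171 and 9161, and 5799, 1465 and 3702 of its regions were common. The common regions of chromosome 10 made up 5.70%, 5.79% and 6.55% of all common regions of replicates 1, 2 and 3. Replicate 2 thus had the fewest EPIC2 regions, summits and common regions, and read depth is unknown because the lists hold no read numbers. Its EPIC2 regions without a summit were the most on chromosome 10, with 1704 against 1339 in replicate 1 and 1371 in replicate 3. Densities were calculated over windows of 1 Mb that held a call in any replicate, of which the short arm had 40, the proximal long arm 56 and the distal long arm 38. A pair of windows between 40 and 42 Mb, at the centromere, had no call. The segments were compared within each replicate, and no p is given because a 2-sided exact sign test over 3 replicates cannot go below 0.25.

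Common regions were densest on the distal long arm in each of the 3 replicates. Replicate 1 had 67.0 common regions per Mb there, against 30.8 on the proximal long arm and 38.2 on the short arm. Replicate 2 had 21.4 per Mb on the distal long arm, 6.54 on the proximal long arm and 7.12 on the short arm. Replicate 3 had 51.0, 17.7 and 19.3 per Mb in the same order. The number of calls differed so much between replicates that the ranges of the segments over replicates overlapped, while the order of the distal long arm against the other segments was the same in every one. The density of the distal long arm was 2.64 ± 0.604 (SD, n = 3) times that of the rest of chromosome 10, with ratios of 1.98, 3.16 and 2.78 in replicates 1, 2 and 3. It held 43.9%, 55.6% and 52.4% of the common regions of the chromosome on 28.4% of its windows. Chromosomes other than 10 had 34.8, 8.66 and 19.2 common regions per Mb, so the short arm and the proximal long arm were near the level of the other chromosomes and the distal long arm was above it. The ratio to the other chromosomes was 2.35 ± 0.383 (SD, n = 3) for the distal long arm, 0.854 ± 0.0880 for the proximal long arm and 0.975 ± 0.139 for the short arm.

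**Figure D1:**
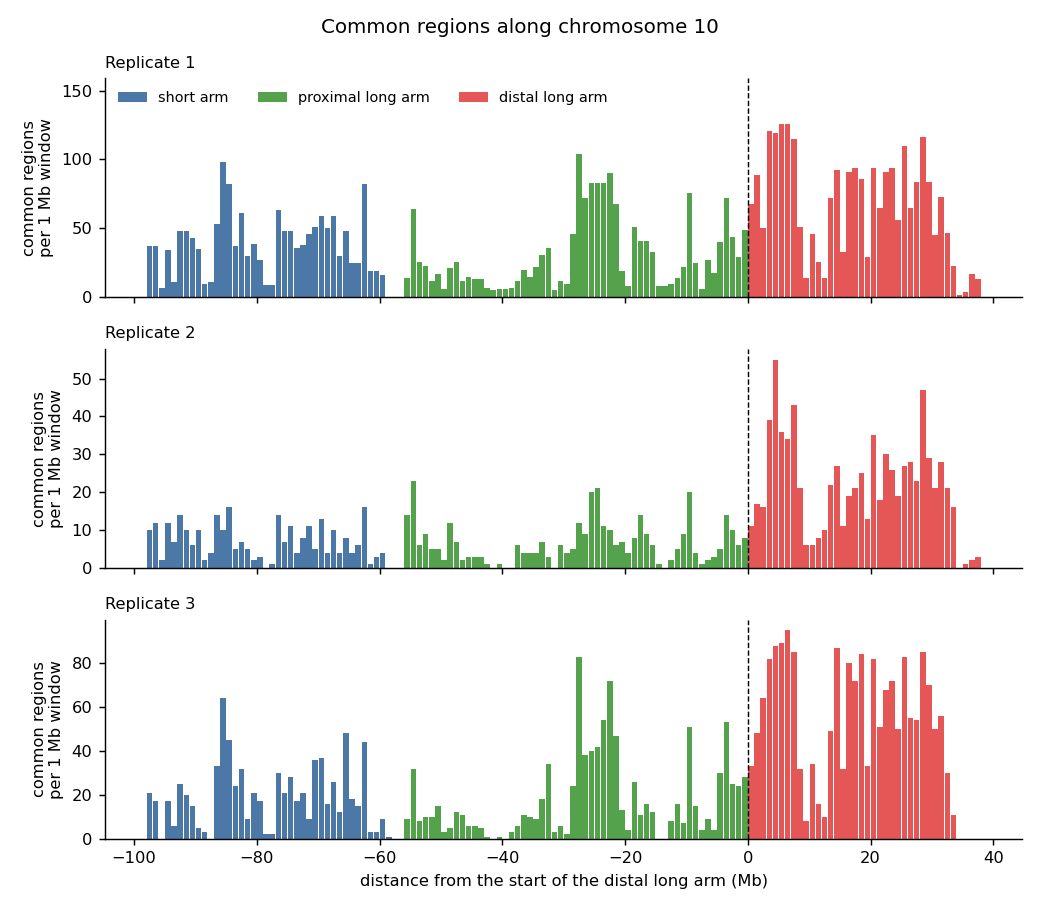
Common regions per 1 Mb window along chromosome 10 (y axis, number of regions) by distance from the start of the distal long arm in Mb (x axis, dashed line at 0), in 1 panel per replicate with its own y scale. Windows of the distal long arm had medians of 70, 21 and 52.5 common regions in replicates 1, 2 and 3, against 21.5, 5 and 10.5 on the proximal long arm.

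The difference was unevenly shared by the callers. EPIC2 regions had a density of 86.5, 54.8 and 70.1 per Mb on the distal long arm in replicates 1, 2 and 3, and of 40.1, 11.3 and 25.1 per Mb on the rest of the chromosome. The ratio was 3.26 ± 1.40 (SD, n = 3). Summits had a density of 111, 32.5 and 94.7 per Mb on the distal long arm against 76.6, 20.2 and 58.0 on the rest, a ratio of 1.56 ± 0.103. The summit ratio was nearly the same in the 3 replicates, from 1.45 to 1.63, whereas the EPIC2 ratio was between 2.16 in replicate 1 and 4.83 in replicate 2. The rise of summit density held in every replicate, and most of the spread between replicates came from EPIC2 regions.

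A window of 1 Mb was counted as dense when its common regions lay in the upper 25% of all windows of the genome in each of the 3 replicates, which means above 53, 11 and 30 common regions. Of 2885 windows in the genome, 17.4% were dense. On the distal long arm 22 of 38 windows were dense, on the proximal long arm 6 of 56 and on the short arm 3 of 40. The share of the distal long arm, 57.9%, was above that background and the shares of the other segments, 10.7% and 7.50%, were below it. The windows with the highest mean share of common regions lay on the distal long arm in the window starting at 102 Mb, with 119, 55 and 88 common regions in replicates 1, 2 and 3, in that starting at 126 Mb with 116, 47 and 85, and in that starting at 105 Mb with 115, 43 and 85. On the proximal long arm the leading window, at 70 to 71 Mb, had 104, 12 and 83 common regions, so it came close to the distal windows in replicates 1 and 3 and not in replicate 2. On the short arm the leading window, at 12 to 13 Mb, had 98, 10 and 64. The number of common regions per window ranked alike in the 3 replicates, with Spearman's rho of 0.85 for replicates 1 and 2, 0.94 for replicates 1 and 3 and 0.84 for replicates 2 and 3 over the 134 windows. These windows are neighbours on 1 chromosome and share the density of its segments, so the values are descriptions.

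Within the distal long arm the density was not even. It was 79.4, 26.4 and 59.3 common regions per Mb from 100 to 110 Mb in replicates 1, 2 and 3, 67.0, 20.1 and 58.0 from 110 to 120 Mb, and 74.0, 26.2 and 57.0 from 120 to 132 Mb. A sparse stretch from 107 to 111 Mb, a run of windows with under 20 summits in a replicate that was picked after its values were seen, had 25, 7.5 and 17 common regions per Mb. From 132 Mb, the end of the last window with EPIC2 regions of all 3 replicates, the density fell to 9, 1.5 and 0 per Mb. In this terminal stretch EPIC2 called 41, 7 and 0 regions and MACS2 120, 47 and 20 summits in replicates 1, 2 and 3. The last EPIC2 region of replicate 3 ended at 131358400, whereas its last summit lay at 135435975. The longest stretch of the distal long arm without a common region of any replicate ran from 131771201 to 132613200 and was 0.842 Mb long. On the proximal long arm the longest such stretch was 0.793 Mb, from 46171801 to 46964400, and on the short arm 0.447 Mb, from 17775001 to 18221600. The high density of the distal long arm therefore did not reach the end of the chromosome. The window from 131 to 132 Mb already had only 23, 16 and 11 common regions, below the segment's medians of 70, 21 and 52.5. The limit of 132 Mb comes from the EPIC2 calls and does not mark where the high density ended.

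On the long arm before 98 Mb the density varied more strongly in relation to its level. The coefficient of variation of common regions per window was 0.85, 0.84 and 1.06 on the proximal long arm, 0.57, 0.64 and 0.77 on the short arm and 0.56, 0.60 and 0.59 on the distal long arm, in replicates 1, 2 and 3. The proximal long arm held a dense stretch from 68 to 76 Mb with 71.4, 11.5 and 44.4 common regions per Mb and a sparse stretch from 52 to 60 Mb with 9, 1.38 and 2.75, both picked after their values were seen. The dense stretch reached the level of the distal long arm in replicate 1 and stayed below it in replicates 2 and 3. The short arm and the proximal long arm differed little in density over the whole segment. The short arm had 1.14 ± 0.0863 (SD, n = 3) times the common regions per Mb of the proximal long arm, with ratios of 1.24, 1.09 and 1.09. Their median windows differed more in replicates 1, 2 and 3. These held 37, 6.5 and 17 common regions on the short arm and 21.5, 5 and 10.5 on the proximal long arm.

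Common regions of the distal long arm were wider. Their median width was 2000, 3200 and 3800 bases in replicates 1, 2 and 3, against 1400, 2200 and 3000 on the proximal long arm and 1400, 2000 and 3000 on the short arm. The ratio of the distal long arm to the rest was 1.43 ± 0.167 (SD, n = 3). Replicates differed more in width than segments did, and the distal long arm had the highest median in each of the 3. Regions of 10000 bases or more made up 1.69%, 3.93% and 8.67% of the common regions of the distal long arm, and 0.184%, 0.922% and 1.76% of those of the rest of the chromosome. The widest ones on the distal long arm spanned 29400, 21200 and 40600 bases. Through their number and width together, common regions covered 17.6%, 8.20% and 25% of the distal windows and 5.97%, 1.63% and 6.40% of the rest. Common regions of the distal long arm held on average 1.28, 1.10 and 1.36 summits each, against 1.18, 1.10 and 1.22 on the rest, so the added width came with more summits per region in replicates 1 and 3 and with no more in replicate 2.

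Neighbouring common regions lay closer together on the distal long arm. The median distance between midpoints was 8.60 kb in replicate 1, 23.3 kb in replicate 2 and 11.3 kb in replicate 3. On the proximal long arm it was 12.6, 61.5 and 16.2 kb, and on the short arm 13.0, 77.8 and 19.5 kb, in the same order. The ratio of the distal long arm to the rest was 0.555 ± 0.190 (SD, n = 3) and was below 1 in all 3 replicates, with 0.677, 0.336 and 0.651. The long distances were shortened in a greater proportion than the median. The 90th percentile of the distance was 27.5, 93.6 and 31.8 kb on the distal long arm and 60.5, 354 and 106 kb on the rest. These distances describe calls pooled over all cells of a culture and are not distances between origins that fired in 1 cell.

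**Figure D2:**
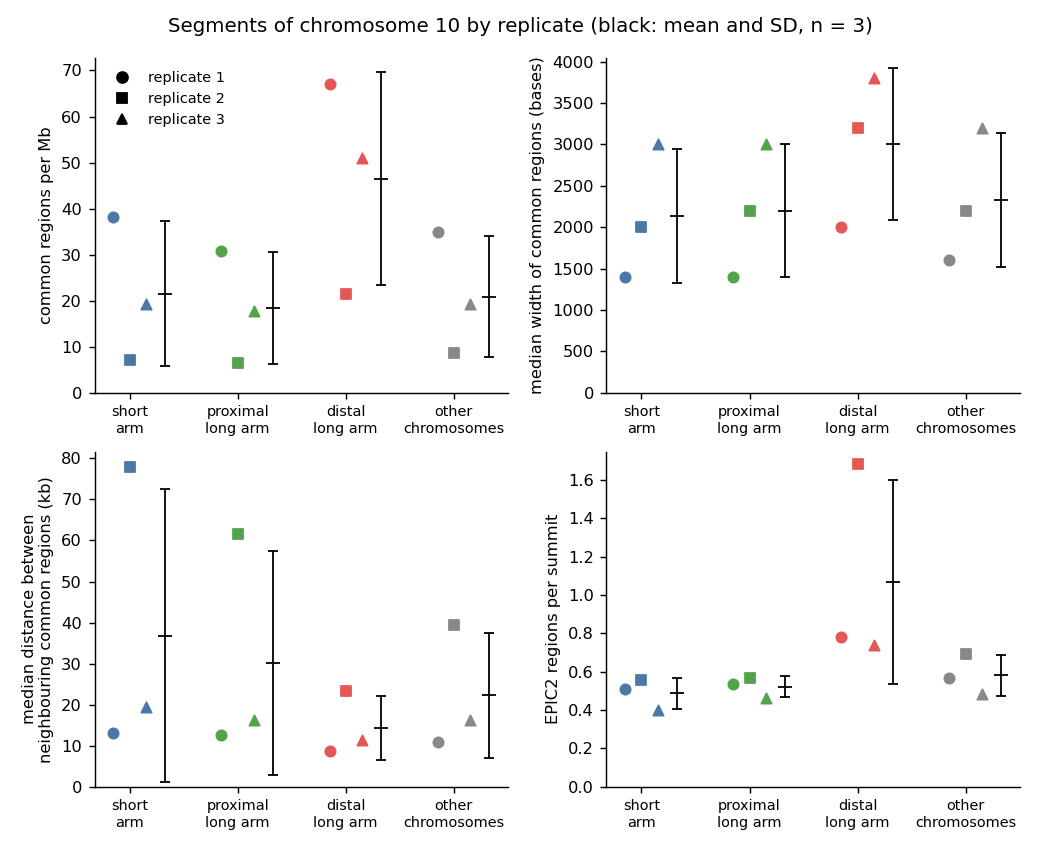
Density, median width and median spacing of common regions and the EPIC2-to-summit ratio (y axes, units on each panel) for the 3 segments of chromosome 10 and for all other chromosomes (x axes), with 1 symbol per replicate and the mean and SD over 3 replicates in black. Within each replicate the distal long arm had the highest density, width and ratio and the shortest spacing, and replicate 2 stood apart in the ratio with 1.68.

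The ratio of EPIC2 regions to summits showed where diffuse and narrow calls parted. It was 0.781, 1.68 and 0.741 on the distal long arm in replicates 1, 2 and 3. On the proximal long arm it was 0.538, 0.566 and 0.462, on the short arm 0.509, 0.558 and 0.399, and on the other chromosomes 0.568, 0.691 and 0.483. The distal long arm was highest in every replicate, and in replicate 2 alone it held more regions than summits. The ratio on the distal long arm was 2.07 ± 0.812 (SD, n = 3) times that of the rest of the chromosome, with 1.49, 2.99 and 1.71 in replicates 1, 2 and 3. Without replicate 2 the mean was 1.60. The short arm and the proximal long arm were within a small range of each other, with a ratio of 0.932 ± 0.0621 (SD, n = 3).

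Regions and summits were then matched to see which calls made the difference. EPIC2 regions without a summit had a density of 19.5, 33.3 and 19.1 per Mb on the distal long arm and 6.22, 4.55 and 6.71 per Mb on the rest. Summits outside EPIC2 regions were fewer on the distal long arm, with 25.3, 8.89 and 25.5 per Mb against 36.6, 12.7 and 35.6. Both kinds of unmatched call thus changed in opposite directions in all 3 replicates. The share of summits inside an EPIC2 region was 77.1% (95% exact Clopper-Pearson interval 75.8 to 78.4), 72.7% (70.1 to 75.1) and 73.0% (71.6 to 74.5) on the distal long arm in replicates 1, 2 and 3. On the rest it was 52.2% (51.1 to 53.4), 37.0% (34.8 to 39.2) and 38.6% (37.3 to 39.8). The difference was 31.7 ± 5.88 percentage points (SD, n = 3). EPIC2 regions covered 22.3%, 21.6% and 32.7% of the distal windows against 7.21%, 3.19% and 9.19% of the rest, and the part of this coverage in the share was not tested. The intervals cover counting error only, and neighbouring calls are not independent.

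The share of EPIC2 regions that held a summit behaved differently from replicate to replicate. It was 77.4% (95% exact interval 76 to 78.8) on the distal long arm of replicate 1 and 84.5% (83.3 to 85.6) on the rest. In replicate 2 it was 39.1% (37.0 to 41.3) against 59.8% (56.9 to 62.8). In replicate 3 it was 72.7% (71.0 to 74.4) against 73.3% (71.4 to 75), where the intervals overlapped. The mean difference of -9.44 ± 10.3 percentage points (SD, n = 3) was smaller than its spread between replicates. In replicate 2 the distal long arm held 1267 EPIC2 regions without a summit. Of these, 71.7% overlapped an EPIC2 region of replicate 1 and 78.2% one of replicate 3, against 61.1% and 45.9% for the 257 such regions of the proximal long arm. EPIC2 regions of replicate 3 covered 32.7% of the distal and 9.18% of the proximal windows, so the base that could be hit by position alone also differed.

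The ratio was followed along the chromosome over windows with at least 20 summits in each replicate, of which there were 1411 in the genome. In the upper 25% of the ratio in all 3 replicates, which means above 0.77, 0.88 and 0.73, were 12% of these windows. The filter left out 9 of the 38 distal windows, those of the sparse stretch and of the terminal stretch among them. On the distal long arm 17 of 29 windows were called, on the proximal long arm 1 of 26 and on the short arm 0 of 22. More EPIC2 regions than summits in replicate 2, a criterion chosen after its values were seen, were found in 15.7% of the 1411 windows, in 28 of 29 windows of the distal long arm and in none of the 48 windows on the rest of chromosome 10. The exception on the distal long arm was its first window, from 98 to 99 Mb, with 0.576 regions per summit. The step in replicate 2 was narrow. Its ratio was 0.320 at 96 to 97 Mb, 0.522 at 97 to 98 Mb, 1.12 at 99 to 100 Mb and 2.04 at 100 to 101 Mb. In the same windows replicate 1 had 0.402, 0.533, 0.858 and 0.663 and replicate 3 had 0.567, 0.444, 0.781 and 0.864. Windows with more regions than summits in replicate 2 were most frequent on chromosome 8, 60 of 105, and chromosome 17, 42 of 73. Chromosomes 10, 19 and 16 followed with 28 of 77, 17 of 49 and 19 of 59. In the upper 25% of the ratio in all 3 replicates were 27 of 49 windows on chromosome 19 and 23 of 73 on chromosome 17. Such windows numbered 10 of 33 on chromosome 22, 14 of 59 on chromosome 16, 18 of 77 on chromosome 10 and 17 of 105 on chromosome 8.

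**Figure D3:**
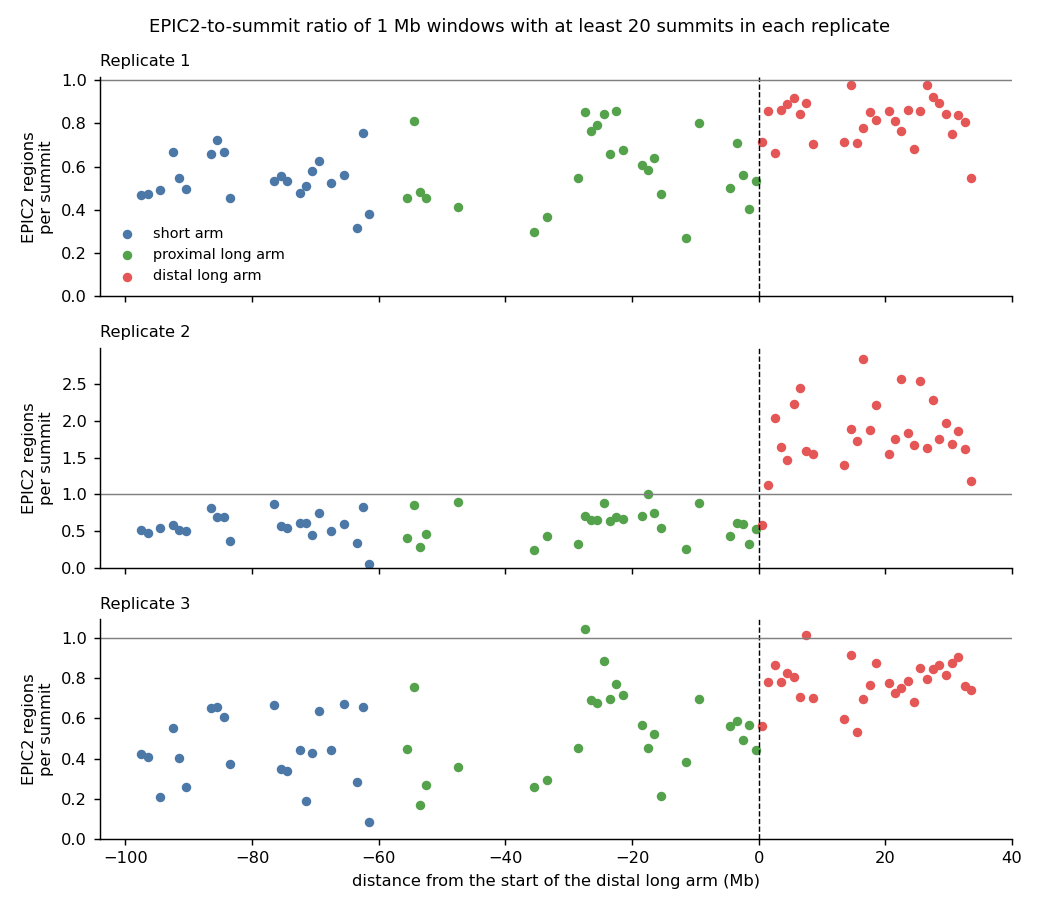
EPIC2 regions per summit (y axis, a ratio, grey line at 1, own scale in each panel) of 1 Mb windows with at least 20 summits in each replicate, by distance from the start of the distal long arm in Mb (x axis), in 1 panel per replicate. On the distal long arm the windows of replicate 2 lay between 0.576 and 2.85 with a median of 1.75, and those of the proximal long arm between 0.238 and 1.00.

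A search of the long arm for the run of windows whose ratio differed most from the remainder was added after the values were seen. In replicate 2 it returned 99 to 132 Mb, with 1.78 regions per summit inside and 0.550 outside. In replicates 1 and 3 it returned a run with a low ratio instead, 50 to 69 Mb with 0.325 inside and 0.709 outside in replicate 1, and 44 to 69 Mb with 0.261 inside and 0.674 outside in replicate 3. When only runs with a higher ratio were allowed, the run began at 69 Mb in replicate 1 and 70 Mb in replicate 3 and ended at 132 Mb in both. A boundary near 98 Mb was therefore visible in replicate 2 alone. In replicates 1 and 3 the dense stretch from 68 to 76 Mb had a ratio close to that of the distal long arm, with 0.748 and 0.717. The division at 98 Mb was proposed with earlier results of the same lists known, so the search did not find it independently. All 3 replicates shared the end of the run at 132 Mb. In the sparse stretch from 107 to 111 Mb the ratio was 0.399 in replicate 1 and 0.318 in replicate 3, below the rest of the chromosome as a whole, and 0.884 in replicate 2, above it.

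The ratio also moved with the number of summits in a window, so the 1411 windows were divided into 3 classes of like size by the summits of the replicate itself, a comparison added after the values were seen. In replicate 2 the distal long arm had 1.67, 1.80 and 1.81 regions per summit in the low, middle and high class, on 3, 12 and 14 windows. The proximal long arm had 0.502, 0.646 and 0.688, the short arm 0.454, 0.652 and 0.583, and the other chromosomes 0.578, 0.726 and 0.961. The distal long arm of replicate 2 was thus above the other chromosomes in each class. In the high class of replicate 1 the distal long arm had 0.855, the proximal long arm 0.767 and the other chromosomes 0.793, and in that of replicate 3 the values were 0.801, 0.754 and 0.735. In the low class the gap was wider, with 0.782 against 0.465 in replicate 1 and 0.732 against 0.424 in replicate 3 for the distal and proximal long arm, on 5 and 3 distal windows. At a like number of summits the distal long arm stayed highest in each class of every replicate, by little in the densest windows of replicates 1 and 3.

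**Figure D4:**
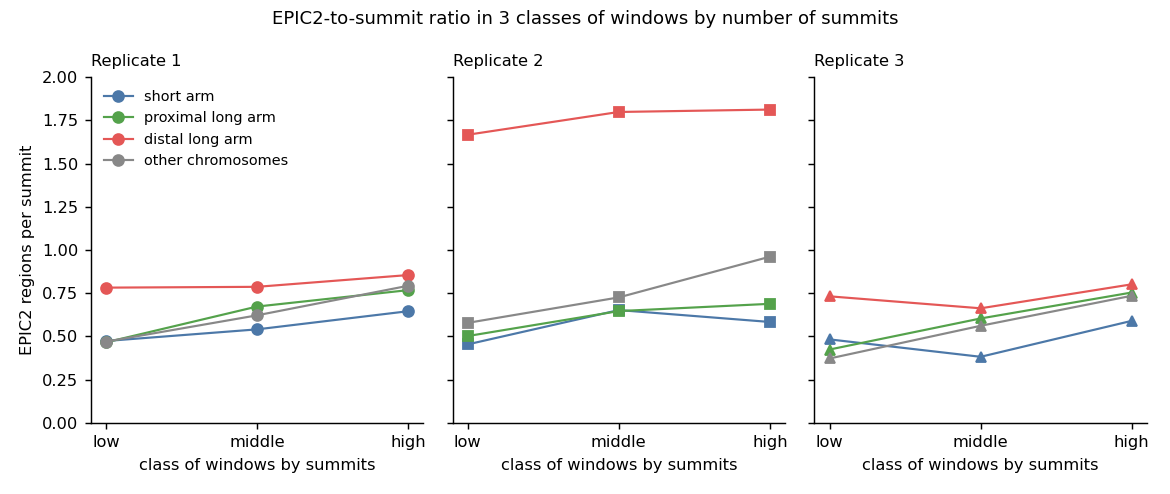
EPIC2 regions per summit (y axis, a ratio) in 3 classes of the genome's 1 Mb windows by the replicate's own number of summits (x axis), in 1 panel per replicate, with 1 line for each segment of chromosome 10 and for the other chromosomes. In replicate 2 the line of the distal long arm, from 1.67 to 1.81, lay above all others, and in replicates 1 and 3 the lines drew together in the high class.

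The scores of the calls differed as well. The median summit score was 5.54, 3.61 and 4.35 on the distal long arm and 4.73, 3.19 and 3.92 on the rest, in replicates 1, 2 and 3. As percentiles within a replicate, summits of the distal long arm were 7.43 ± 2.56 points (SD, n = 3) higher, and EPIC2 regions 15.5 ± 4.60 points higher by their own score. The highest summit score of each common region behaved otherwise. Its median percentile among the common regions of the replicate was 50.4 on the distal long arm of replicate 1 and 50.5 on the rest, 36.5 against 54.7 in replicate 2 and 56.0 against 48.5 in replicate 3. In replicate 2 the common regions of the distal long arm therefore had lower top summits than those of the rest of the chromosome, although its distal summits as a whole scored higher.

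Common regions that shared 1 base or more between replicates were merged, and merged regions of 2 or more replicates gave 2588 consensus origins on chromosome 10. The distal long arm held 1382 of them, or 36.4 per Mb, the proximal long arm 673, or 12.02 per Mb, and the short arm 533, or 13.3 per Mb. Of the merged regions, 48.9% reached consensus on the distal long arm, 30.5% on the proximal long arm and 27.5% on the short arm. All 3 replicates contributed to 27.6%, 15.2% and 12.2% of the consensus origins in the same order. Common regions covered 17.6%, 8.20% and 25% of the distal windows in replicates 1, 2 and 3, against 5.97%, 1.63% and 6.40% of the rest. The part of this coverage in these shares was not tested. Consensus origins of the distal long arm had a median width of 5200 bases and a median spacing of 15.8 kb, against 3800 bases and 25.2 kb on the proximal long arm. They covered 25.5% of the distal windows, 5.39% of the proximal and 5.36% of the short arm. Replicate 1, with the most calls, contributed to 96.7% of those on the distal long arm. Without replicate 1 their density was 11.2 per Mb, and without replicate 3 it was 16.4 per Mb.

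Replicates found each other's common regions more often on the distal long arm. Of the distal regions of replicate 2, 79.7% overlapped one of replicate 1 and 59.2% one of replicate 3, against 72.7% and 32.5% on the proximal long arm and 63.2% and 23.5% on the short arm. For regions of replicate 1, 60.5% were found in replicate 3 on the distal long arm, 32.4% on the proximal long arm and 29.3% on the short arm. The regions to be hit covered 25%, 6.40% and 6.40% of these segments in replicate 3, and the part of this difference in the overlap was not tested. Single summits, which have no width, were also compared. Within 250 bases of a summit of replicate 1 lay 57.7% of the summits of replicate 2 on the distal long arm, 49.6% on the proximal long arm and 48.3% on the short arm, with summits of replicate 1 also denser on the distal long arm.

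In each segment the 3 consensus origins of all replicates that ranked highest by top summit score, averaged as percentiles, are named in hg19 coordinates counted from 1. On the distal long arm the first was chr10:103508401-103597400, the widest consensus origin of the chromosome with 89000 bases. No replicate called a region of that width. Merging joined overlapping regions of different replicates, and the widest single ones of this segment spanned 29400, 21200 and 40600 bases in replicates 1, 2 and 3. The merged stretch held 16, 6 and 12 summits of replicates 1, 2 and 3, with top scores of 24.8, 34.1 and 15.5. The second, chr10:102040401-102048200, had top scores of 23.8, 23.8 and 24.6, nearly equal in the 3 replicates. The third, chr10:104240401-104272800, had 64.5, 36.9 and 10.2. All 3 lay between 102 and 105 Mb.

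On the proximal long arm all 3 named regions lay within 1 Mb after the windows without calls at the centromere. They were chr10:42596801-42600400 with top scores of 80.7, 167 and 175, chr10:42377001-42389800 with 56.3, 189 and 401, and chr10:42529201-42531000 with 42.1, 99.6 and 54.9. These scores were above those of the distal regions in replicates 2 and 3. No call was left out for lying beside the centromere, and the sources name no control library. Whether the high scores there reflect use of origins was not tested. On the short arm the named regions were chr10:3097801-3099400 with top scores of 22, 56.3 and 12.3, chr10:25422401-25426000 with 52.5, 21.5 and 7.57, and chr10:12095001-12112200 with 13.4, 26.1 and 7.83. Genes and sequences at these positions were not analysed here, because the reference at hand is of another build.

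The distal long arm was last set beside the ends of other chromosomes. On 19 chromosomes that spanned at least double its 38 windows, the last 38 Mb were compared with the rest. This length was set by the division of chromosome 10, which was proposed with earlier results of the same lists known. It was not fitted to the other chromosomes, so the comparison favours a high rank of chromosome 10 and the ranks are descriptions. Chromosome 10 ranked 2, 1 and 1 of 19 by the density ratio of common regions in replicates 1, 2 and 3, and likewise 2, 1 and 1 by the ratio of EPIC2 regions per summit. Chromosome 9 was nearest, with density ratios of 2.16, 2.94 and 2.17 against 1.98, 3.16 and 2.78 for chromosome 10. Its ratio of EPIC2 regions per summit between end and rest was 1.5, 1.48 and 1.66, close to the 1.49 and 1.71 of chromosome 10 in replicates 1 and 3 and below the 2.99 in replicate 2. The density itself was lower on the end of chromosome 9 in every replicate, with 54.2, 14.1 and 29.7 common regions per Mb, and higher on the end of chromosome 17, with 90.4, 33.9 and 66.3. On chromosome 17 the ratio of EPIC2 regions per summit between end and rest was 1.04, 2.00 and 1.01. In replicate 2 the end of chromosome 17 had 1.69 EPIC2 regions per summit and that of chromosome 8 had 1.48, against 1.68 on chromosome 10. The level on the distal long arm of chromosome 10 was therefore shared with the end of chromosome 17, while the rest of the chromosome was lower on chromosome 10, with 0.562 against 0.845 on chromosome 17 and 1.02 on chromosome 8.

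**Figure D5:**
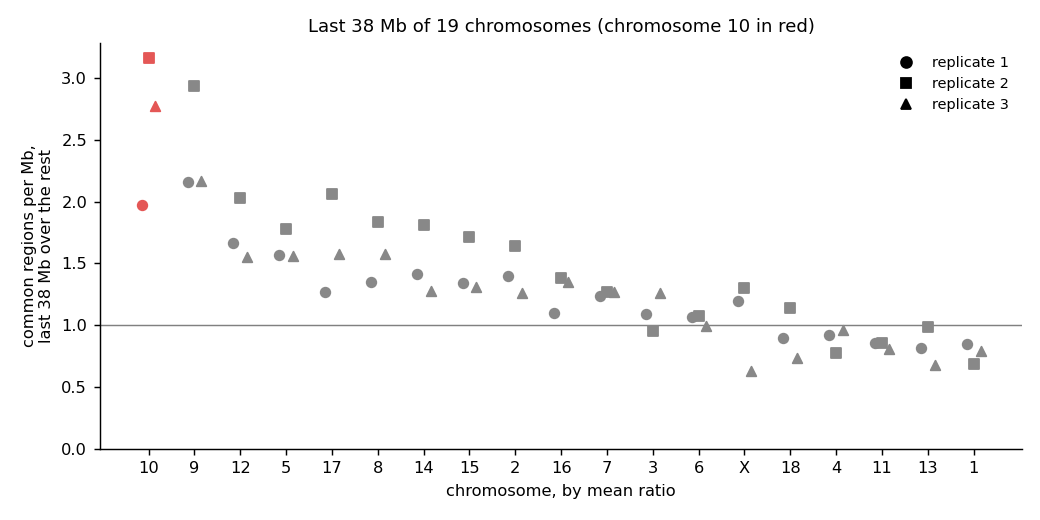
Common regions per Mb in the last 38 Mb over the rest of the same chromosome (y axis, a ratio, grey line at 1) for 19 chromosomes ordered by the mean over replicates (x axis), with 1 symbol per replicate. Chromosome 10, in red, had 1.98, 3.16 and 2.78 in replicates 1, 2 and 3 and chromosome 9 had 2.16, 2.94 and 2.17.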

How the data were processed

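Per the labels and the methods, the authors aligned SNS-seq reads to hg19 with Bowtie2 2.3.4.2, removed duplicates with Picard 2.18.17, and called each replicate with MACS2 2.1.0.20151222 at a q-value of 0.1 and with EPIC2 at an FDR of 0.1. The sources used here name no control library for calling. Each deposited EPIC2 row has 1 score, of unstated kind and used for ranks within its replicate alone. Each deposited MACS2 row has a summit and −log10 of its q-value. EPIC2 regions lie on a grid of 200 bases, and widths include the last base.

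Calls were assigned to segments by their midpoint. A region was common when it held a summit of its own replicate, and densities were taken over called windows of 1 Mb. This unit is not an exact rebuild of the authors' origins. Chromosome 10 calls reached 135435975, past the last annotated base of the GRCh38 copy at hand (133778699), which was therefore not used. Members, segments and rules were chosen with earlier results of these data known. The named regions were, per segment, the 3 consensus origins highest by mean percentile of top summit score, the 3 windows richest in common regions and the longest stretch without one. Chromosomes 8, 9, 16, 17, 19 and 22 are named outside that rule. The functions were tested on simulated calls. Depth is unknown. Alternatives covered the boundary, unit, thresholds, length of the segments, overlap and each replicate. Ending the distal long arm at 132 Mb and classes by summit number were added after seeing the data. Computation used Python 3.11.15, numpy 2.4.6, pandas 2.3.3 and scipy 1.17.1.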

Additional observations from a re-analysis of the deposited data

How the results depend on the processing

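Of 90 recalculated values, 15 were densities of consensus origins, which have no direction that could turn. In none of the others did a direction turn as a mean over replicates. Of all 90, 76 stayed within the SD between replicates, or for the number of consensus origins within 1.5 times. Leaving out 1 of 3 replicates cannot move their mean by as much as their SD. Such values of the ratios and of the share holding a summit therefore had to stay within it, and their part of the 76 says nothing on stability. For the share holding a summit this SD, 10.3 points, was larger than the mean difference of -9.44 points, so staying within it says little. The distal over rest density ratio of 2.64 moved to 3.25 as a median over windows, 3.26 with EPIC2 regions and 1.56 with summits as the unit, 3.64 with the upper 50% of EPIC2 scores and 4.15 with an equal number of common regions per replicate. The density of the short arm over the proximal long arm, 1.14, became 1.55 as a median over windows, 1.25 without the windows within 5 Mb of the centromere or the ends, 1.05 with the upper 50% of EPIC2 scores and 1.05 with equal numbers, and in replicate 3 it was 0.941 and 0.942 in the last 2 settings. The 36.4 consensus origins per Mb of the distal long arm became 19.2 with equal numbers, 21.7 with a reciprocal overlap of 50% and 10.03 when all 3 replicates were required. The cause of these shifts was not tested.

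Leaving out 1 replicate gave density ratios from 2.38 to 2.97 for the distal long arm and 1.09 to 1.16 for the short arm, EPIC2-to-summit ratios from 1.60 to 2.35, width ratios from 1.35 to 1.51, spacing ratios from 0.494 to 0.664, differences in the share holding a summit from -13.9 to -3.80 points, and 11.2 to 30.4 consensus origins per Mb. In replicate 3 the share holding a summit turned to higher on the distal long arm, by 3.72 points, with the upper 50% of EPIC2 scores and by 1.05 points with a summit score of at least 2, and it lay near 0 with a later start of the segment. Moving the start of the distal long arm by 2 or 5 Mb either way changed no direction of a mean. Segments were compared within each replicate throughout. No paired analysis was possible between groups because all samples belonged to 1 group. Calls were not scaled by read depth, control reads or copy number, so differences between replicates in number of calls limit every density.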
